A study of Mus musculus with 14 samples.

Results

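The 9 genes described here, Mbp, Mog, Mag, Mobp, Cnp, Myrf, Enpp2, Opalin and Cldn11, encode proteins of central myelin or of the mature oligodendrocyte. They were taken by gene symbol from count tables of 55291 rows, and each of the 9 symbols had 1 row. Polyadenylated RNA was sequenced from 14 mouse dentate gyri, each cut from its own organotypic slice culture of entorhinal cortex and hippocampus. Cultures were prepared on postnatal day 4 to 5 and kept for 18 days or longer in medium containing horse serum. 6 libraries came from wildtype C57BL/6J cultures (APP+/+) and 8 from APP-deficient cultures (APP-/-, APPko), a gene-targeted line that lacks the amyloid precursor protein. The sources used here do not say whether cultures shared an animal or a litter, and p-values therefore describe culture-to-culture spread, part of which may be technical. The question was how the dentate gyrus transcriptome differs without this protein, here for the genes of myelin.

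Oligodendrocytes arise from precursor cells after birth, switch on a set of myelin genes together and wrap axons with compacted membrane. Mbp encodes myelin basic protein, which holds the cytoplasmic faces of the membrane together. Mobp encodes another abundant protein of the same compartment, and Cnp an enzyme that keeps cytoplasmic channels through myelin open. Mag and Mog encode cell surface proteins of the immunoglobulin family on the inner and the outermost wrap. Cldn11 forms the tight junctions between wraps, Opalin is a small membrane protein of mature oligodendrocytes, and Myrf is the transcription factor that switches the program on. Enpp2 encodes autotaxin, a secreted enzyme that makes lysophosphatidic acid. It is the member least restricted to myelin, since choroid plexus also makes it.

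Total counts ranged from 16686909 to 31031126 per library. App itself lay between 679 and 964 CPM (the usual depth-scaled unit of gene counts, here with TMM scaling) in wildtype and between 182 and 231 CPM in APPko, a 3.78-fold lower level (edgeR adjusted p = 9.2e-09), so every library went with its label. Each column header closes with a letter that the labels do not explain. It was f for 3 wildtype libraries and 7 from APPko cultures, and m for 3 wildtype libraries and 1 from APPko, an uneven spread over the genotypes. The TMM scaling factors were 0.852 in wildtype library 2 and 0.847 in wildtype library 3, below those of the other 12 libraries (at least 0.976). Prox1, which defines granule cells, lay between 106 and 207 CPM over all libraries.

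Every library contained the 9 transcripts. Together they made up 0.0424 ± 0.0190% of wildtype counts and 0.0441 ± 0.00785% of APPko counts (SD over 6 and 8 libraries, as for every ± value). Counts per library ran from 20 to 114 for Myrf, the scarcest, and from 1266 to 5291 for Mbp, the most abundant. Per kilobase of annotated exon, the highest over the 14 libraries were Cldn11 (24.2 CPM per kb), Cnp (18.5), Mbp (17.2) and Mog (9.22). Below these came Enpp2 (9.02), Mobp (8.30), Opalin (4.57), Mag (1.48) and Myrf (0.292). The length joins all annotated exons of a gene and can exceed that of the transcripts made. This holds for Mbp (8.47 kb), whose row sums several transcripts, so the order between genes is approximate. The steps in this order that were smaller than their spread over libraries were these: Cnp was above Mbp in 10 of 14 libraries, Mog above Enpp2 in 8, and Enpp2 above Mobp in 6. The step from Opalin to Mag and that from Mag to Myrf held in 14 of 14 libraries. The annotation lets reads of some members be shared: 463 exonic bases of Cnp overlap Dnajc7 and 345 of Enpp2 overlap the noncoding gene Gm26684, both on the opposite strand, and 79 of Mobp overlap Gm38642 on the same strand. For the counting, a strand setting is not given in the sources used here.

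Sequences before the start sites are shown for Mobp, Cnp, Cldn11 and Opalin. With genotype means subtracted, the first 3 had pairwise Pearson r of 0.85 to 0.91 over 14 libraries. Opalin had 0.35 to 0.63 with them. In APPko alone, Cldn11 followed the mean of the other members without Enpp2 at 0.76. Without the 2 libraries farthest from the median that value was 0.15. The sequences come from RefSeq (GRCm38.p6), which matched 6 of the 9 members, and are cut where the deposited annotation begins the gene. The regions are chr9:120149492-120149706 (plus strand) for Mobp, chr11:100574689-100574903 (plus strand) for Cnp, chr3:31149670-31149919 (plus strand) for Cldn11 and chr19:41077114-41077363 (minus strand) for Opalin. Capitals mark ACAAAG, the core bound by SOX factors, and CTGGNAC, a core of the Myrf motif, on either strand, and no match of one overlaps a match of the other.
Mobp: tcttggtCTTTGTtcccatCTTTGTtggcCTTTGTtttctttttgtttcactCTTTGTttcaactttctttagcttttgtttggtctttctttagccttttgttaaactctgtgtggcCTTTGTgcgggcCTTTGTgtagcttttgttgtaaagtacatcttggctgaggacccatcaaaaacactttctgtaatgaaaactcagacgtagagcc
Cnp: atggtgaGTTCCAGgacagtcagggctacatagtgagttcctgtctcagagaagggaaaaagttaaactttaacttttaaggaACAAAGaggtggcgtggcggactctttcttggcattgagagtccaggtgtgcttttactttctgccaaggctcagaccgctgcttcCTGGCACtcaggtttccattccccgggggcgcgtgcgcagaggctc
Cldn11: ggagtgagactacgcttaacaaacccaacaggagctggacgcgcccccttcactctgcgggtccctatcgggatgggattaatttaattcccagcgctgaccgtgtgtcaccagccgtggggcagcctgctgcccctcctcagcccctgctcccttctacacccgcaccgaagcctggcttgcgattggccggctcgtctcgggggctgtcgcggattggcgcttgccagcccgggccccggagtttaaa
Opalin: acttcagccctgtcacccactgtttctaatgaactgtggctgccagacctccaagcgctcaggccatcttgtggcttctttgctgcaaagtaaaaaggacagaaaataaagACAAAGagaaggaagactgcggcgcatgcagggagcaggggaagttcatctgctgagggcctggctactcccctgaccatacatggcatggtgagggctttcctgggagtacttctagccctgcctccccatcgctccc

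The SOX core occurred 6 times before Mobp and once each before Cnp, Opalin and Mag. The window of Cldn11 held neither core. The SOX core was thus present in 4 of the 6 matched members, and 16.5% of all 32851 RefSeq promoters hold it within 250 bases. The windows of Mobp and Cnp held 215 bases and that of Mag 240, so members and all promoters were not searched over equal lengths. Differences from the shares over all promoters were not tested for any motif. The Myrf core occurred 2 times each before Cnp and Mag and 1 time before Mog, in 3 of 6 members against 16.1% of all promoters. Neither the E-box CAGCTG (13.0% of all promoters) nor TATAAA (12.4%) was present in the 6 windows. GC content ran from 39.1% before Mobp to 66.7% before Mag.

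None of the 9 genes differed between the genotypes at an adjusted p under 0.05 (edgeR quasi-likelihood test, adjusted over 22150 genes), where 2.35% of all tested genes passed, 0.944% as higher and 1.41% as lower in APPko. At an unadjusted p under 0.05 (same edgeR test) only Enpp2 counted, 1 of 9 members, beside 4526 of all 22150 tested genes. 5 of the 9 log2 changes were above 0 and 4 below, with a median of 0.11, while 48.3% of all tested genes were above 0 with a median of -0.01. For no member were the groups without overlap, as they were for 1.12% of all tested genes. The 95% intervals of the log2 change covered between -0.27 and 0.51 for Cnp, the tightest around 0 apart from that of Enpp2, and between -1.16 and 0.52 for Mag, the widest.

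**Figure D1:**
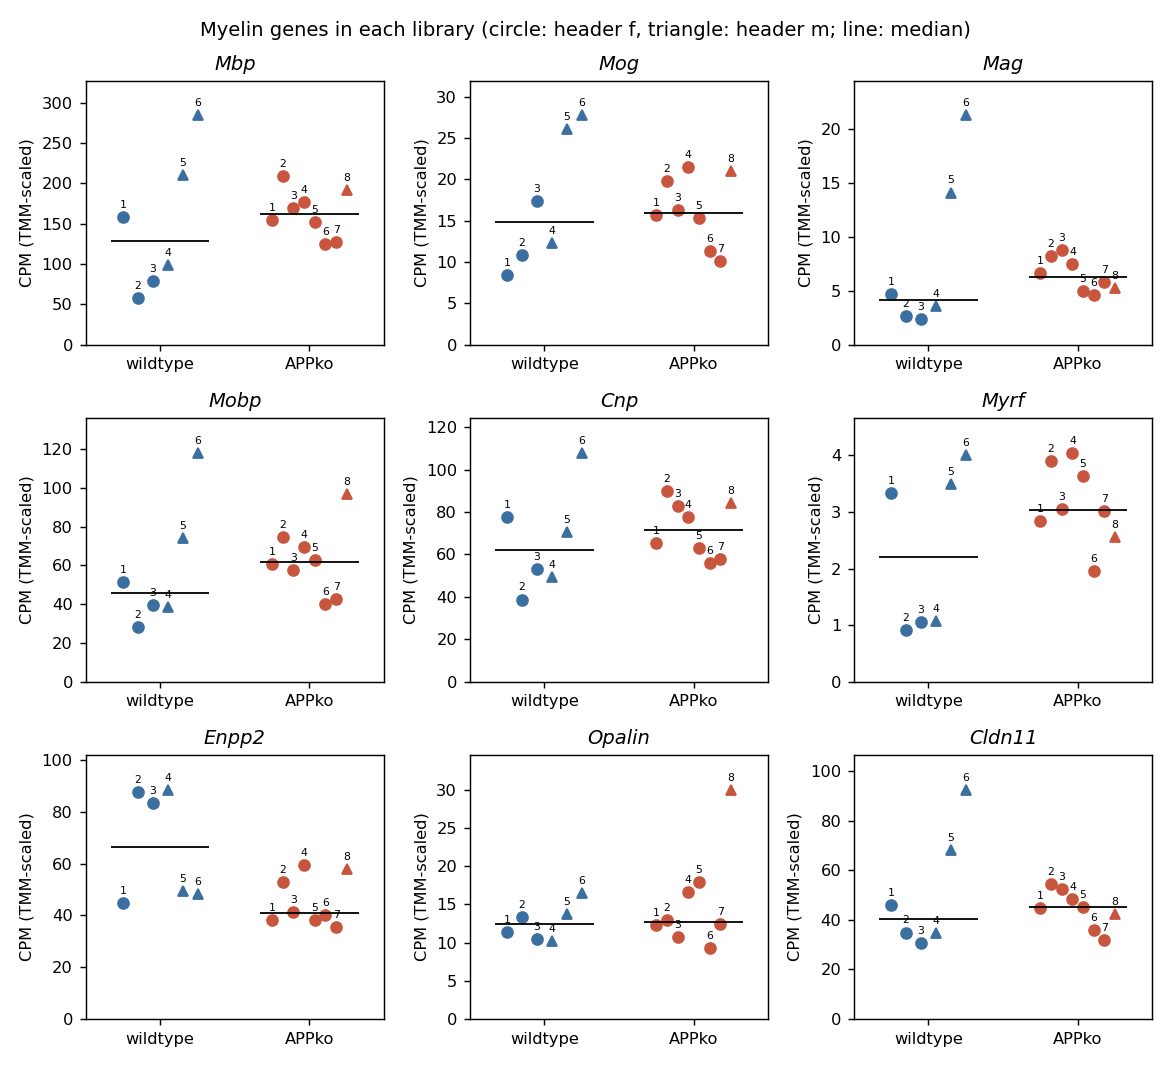
Level of each of the 9 myelin genes in every library, in TMM-scaled CPM on linear axes that start at 0. Points are libraries numbered by replicate (circles f, triangles m) and lines are medians; wildtype library 6 is the highest wildtype point in 8 of 9 panels, and in the Enpp2 panel wildtype libraries 2, 3 and 4 lie above all others.

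Among the structural proteins of compact myelin, Mbp (ENSMUSG00000041607.17, chromosome 18, 82475146 to 82585637, GRCm38) ranged in wildtype from 58.1 to 284 CPM with a median of 129. In APPko it ranged from 124 to 209 CPM with a median of 162. The wildtype values thus enclosed those of APPko on both sides, with 3 wildtype libraries below and 2 above the whole APPko range. The fitted log2 change was 0.14 (SE 0.27, adjusted p = 0.82). Mobp (chromosome 9, 120149707 to 120181484) had a lowest, median and highest value of 28.0, 45.6 and 118 CPM in wildtype and of 40.2, 61.6 and 97.1 CPM in APPko (log2 change 0.11, SE 0.26, adjusted p = 0.86). It showed the same layout, with 3 wildtype libraries below the APPko range and 1 above. The Mbp row sums myelin transcripts and the longer transcripts of the same locus that other cells also make, and counts per gene do not separate them.

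Cnp (chromosome 11, 100574904 to 100591729) gave 38.8, 61.9 and 108 CPM as lowest, median and highest value in wildtype and 56.1, 71.4 and 89.7 CPM in APPko. The groups overlapped, and the log2 change was 0.12 (SE 0.19, adjusted p = 0.77). Cldn11 (chromosome 3, 31149920 to 31164324), the tight junction gene, lay between 30.6 and 92.6 CPM with a median of 40.5 in wildtype, and between 31.9 and 54.4 CPM with a median of 45.1 in APPko. Its log2 change was -0.20 (SE 0.21, adjusted p = 0.64). For this gene the wildtype mean exceeded the APPko mean (51.2 ± 24.5 and 44.5 ± 7.71 CPM) while the medians had the opposite order, because wildtype libraries 5 and 6 reached 68.2 and 92.6 CPM.

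Among the surface proteins, Mag (chromosome 7, 30899176 to 30914873), a ligand of axonal receptors, was the most variable member in wildtype, from 2.41 to 21.2 CPM with a median of 4.13, an 8.82-fold range. In APPko it stayed between 4.59 and 8.77 CPM with a median of 6.23. Its mean was higher and its median lower in wildtype than in APPko, and the log2 change of -0.32 (SE 0.40, adjusted p = 0.71) was not distinguishable from 0. Mog (chromosome 17, 37010743 to 37023398) ran from 8.40 to 27.7 CPM with a median of 14.8 in wildtype and from 10.1 to 21.5 CPM with a median of 16.0 in APPko (log2 change -0.06, SE 0.25, adjusted p = 0.93). The lowest wildtype value of Mog was in library 1, which was not the lowest for any other member but Enpp2.

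Myrf (chromosome 19, 10208272 to 10240748), the transcription factor, had the largest positive log2 change of the 9, at 0.45 (SE 0.32, adjusted p = 0.45). Wildtype values were 0.919, 1.06 and 1.08 CPM in libraries 2, 3 and 4 and 3.34, 3.49 and 4.02 CPM in libraries 1, 5 and 6. The APPko libraries lay between 1.95 and 4.05 CPM with a median of 3.03. Wildtype thus fell into 3 libraries below every APPko library and 3 within the APPko range. Opalin (chromosome 19, 41061710 to 41077113) varied least in wildtype, from 10.2 to 16.5 CPM with a median of 12.4, and all 6 wildtype values lay inside the APPko range of 9.31 to 30.0 CPM (median 12.7, log2 change 0.28, SE 0.22, adjusted p = 0.50). Library 8, the only APPko library with the suffix m, held the highest value, and without it the log2 change of Opalin was 0.08.

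Enpp2 (chromosome 15, 54838901 to 54952892) was the member with the smallest p. It measured 44.9, 66.4 and 88.6 CPM as lowest, median and highest value in wildtype and 35.6, 40.8 and 59.3 CPM in APPko. The means were 67.0 ± 21.5 and 45.5 ± 9.60 CPM (SD, n = 6 and 8), 1.47-fold lower in APPko, with a log2 change of -0.56 (SE 0.18, 95% interval -0.93 to -0.19) and an edgeR adjusted p of 0.089. 3 wildtype libraries lay above the whole APPko range and the other 3 inside it. The former were libraries 2, 3 and 4 at 87.5, 83.6 and 88.6 CPM, and the latter libraries 1, 5 and 6 at 44.9, 49.3 and 48.1 CPM. Without wildtype libraries 2 and 3 the log2 change was -0.34 (adjusted p = 0.51). The change was below 0 in all 27 alternative fits, from -0.72 to -0.34, and passed in 3 of them: DESeq2 (adjusted p = 0.034, a fit that called 11.5% of its genes), f libraries alone (adjusted p = 0.022, 15.6% of genes called) and the fit without wildtype library 1 (adjusted p = 0.049, 4.25% called).

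**Figure D2:**
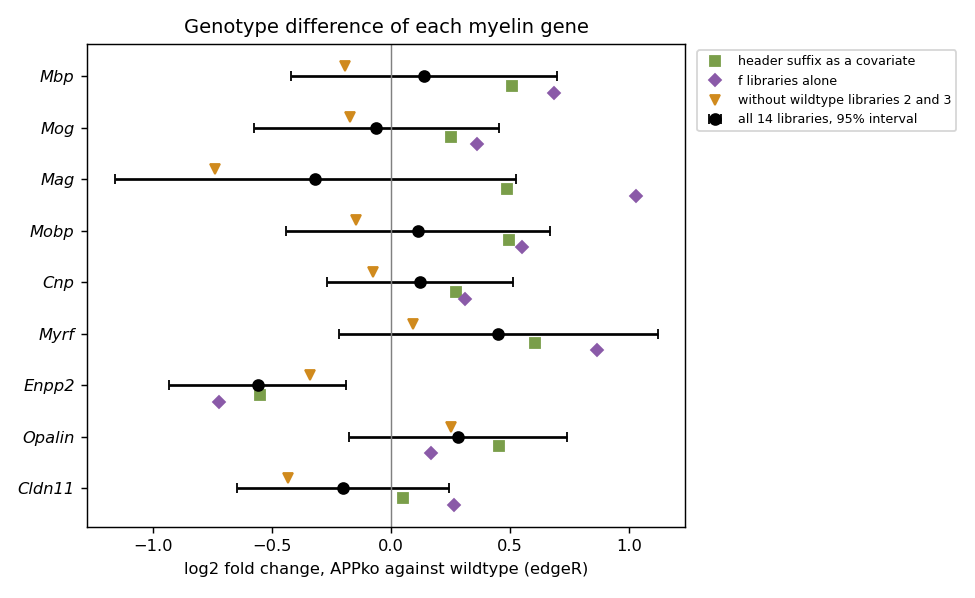
log2 fold change of each gene in APPko against wildtype (x axis), with the 95% interval of the fit over 14 libraries (black) and the values with the header suffix as a covariate, in f libraries alone and without wildtype libraries 2 and 3. Every interval but that of Enpp2 spans 0, and Mag moves most between the fits.

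The spread between libraries was compared next. In 8 of the 9 genes the coefficient of variation (CV) was larger in wildtype than in APPko, as it was in 78.7% of all tested genes, a share near that of the members. The CV of Mbp was 58.6% in wildtype and 18.1% in APPko, that of Mag 95.9% and 24.1%, and that of Cldn11 47.8% and 17.3%. Tested genes in the members' range of mean level had a median CV of 22.5% in wildtype and 13.8% in APPko, and 8 of the 9 members lay above the wildtype median and 9 of 9 above the APPko median. Opalin was the exception, with 19.2% in wildtype and 43.2% in APPko. Removing each library's trend over transcript GC content left the SD of log2 CPM of Mbp at 0.85 in wildtype and 0.25 in APPko (0.88 and 0.27 before). Other members moved more in wildtype, from 0.53 to 0.41 for Cnp, 0.96 to 0.78 for Myrf and 1.29 to 1.12 for Mag. Opalin went the other way, from 0.27 to 0.29.

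**Figure D3:**
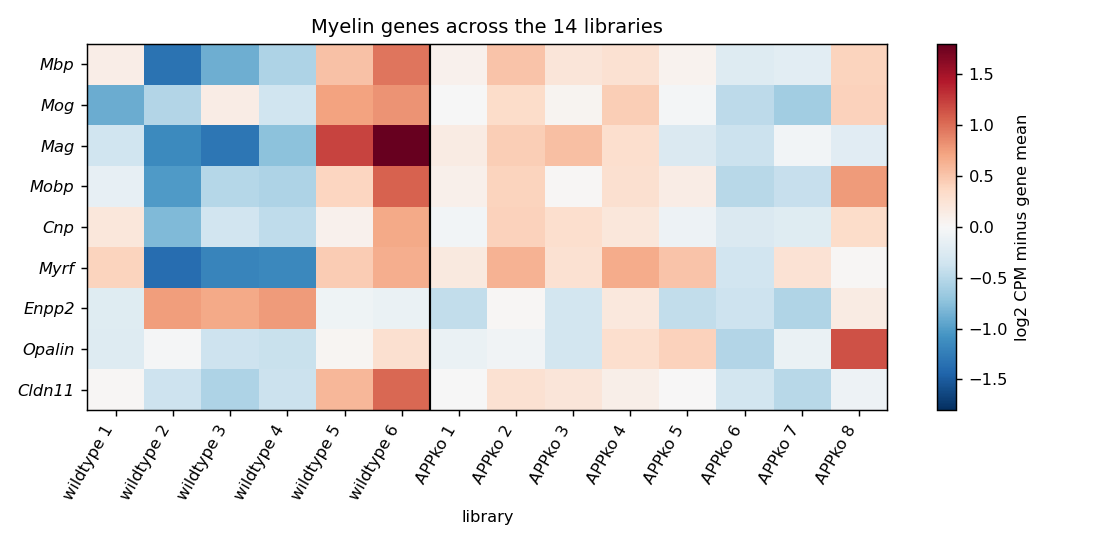
log2 CPM minus the mean of each gene over 14 libraries (colour scale, red high, blue low) for the 9 genes (rows) and the 14 libraries (columns, wildtype left of the line). Wildtype libraries 2, 3 and 4 are low and 5 and 6 high in most rows, and the Enpp2 row runs the other way in wildtype.

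The same wildtype libraries were high or low in most genes. Leaving Enpp2 aside, 7 of 8 members had one of their 3 highest values of all 14 libraries in wildtype library 6, and 4 of 8 in wildtype library 5. The 3 lowest values included wildtype library 2 for 6 members, library 3 for 7 and library 4 for 7. How often other genes had such ranks in these libraries was not measured, and libraries 2 and 3 also had the lowest TMM factors (0.852 and 0.847). After each genotype's mean was subtracted, the Pearson correlation between pairs of members had a median of 0.65 over 36 pairs and 14 libraries, Enpp2 included, given as a description. It ran from -0.66 for Myrf with Enpp2 to 0.94 for Mag with Cldn11, and 6 of the 8 pairs with Enpp2 were below 0. Without wildtype libraries 5 and 6, the farthest from the median, the median was 0.51. With the GC trend removed it was 0.71 over all 14. In bulk tissue, fewer oligodendrocytes in a culture and less myelin RNA per cell cannot be told apart. The part of technical differences between libraries in this pattern was not tested.

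In wildtype Enpp2 was high where most other members were low, and in APPko it followed their mean. In wildtype libraries 2, 3 and 4 the Mbp value was 0.664, 0.950 and 1.12 times the Enpp2 value, and in libraries 1, 5 and 6 it was 3.53, 4.26 and 5.91 times. The 8 APPko libraries lay at 2.99 to 4.11 times, a range that includes wildtype library 1. Wildtype thus fell into separate clusters of 3 libraries, high in Enpp2 with low Mbp and the reverse, and no correlation is given for it. Across the 8 APPko libraries Enpp2 followed the mean of the other 8 members with a Pearson r of 0.77 (Spearman rho 0.76), and with an r of 0.95 without the 2 libraries farthest from the median. Leaving out single APPko libraries gave 0.71 to 0.89. The other members were uneven in APPko, each set against the mean of the rest without Enpp2. Their r ran from 0.43 for Opalin to 0.96 for Mbp. Without the 2 libraries farthest from the median it ran from -0.11 for Mag to 0.92 for Mog. The difference between the genotypes in the relation of Enpp2 to the other members was seen in the data and was not tested.

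**Figure D4:**
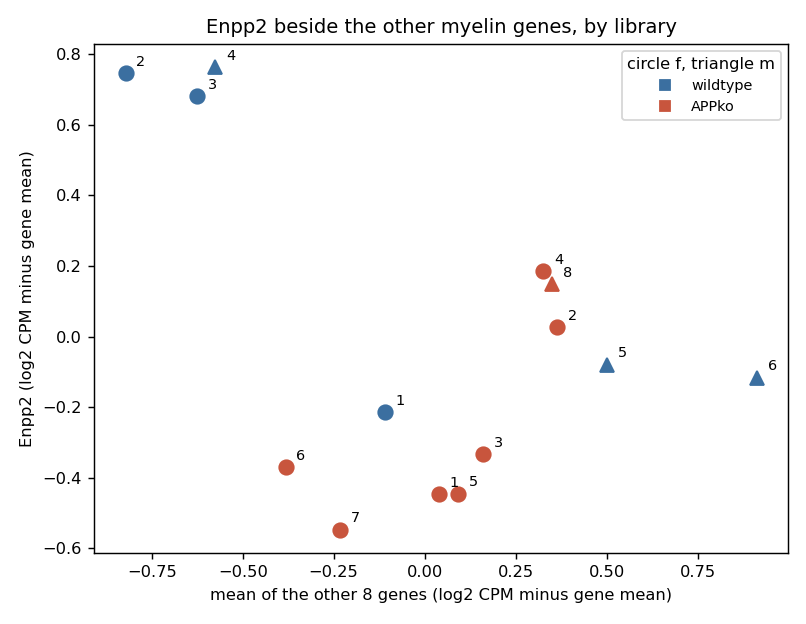
Enpp2 (y axis) against the mean of the other 8 myelin genes (x axis), both as log2 CPM minus the gene mean, in 6 wildtype (blue) and 8 APPko (red) libraries numbered by replicate. Wildtype libraries 2, 3 and 4 lie alone at the upper left, and the APPko libraries run from lower left to middle right.

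Other sources of Enpp2 were checked by their markers. The choroid plexus list (10 genes) summed to 5.39 to 8.65 CPM in wildtype and 5.22 to 10.0 CPM in APPko. Its defining gene Ttr, which choroid plexus makes in very large amounts, stayed between 0.126 and 1.47 CPM over all 14 libraries. Kcnj13 of the same list was at 2.62 and 2.30 CPM in wildtype libraries 2 and 4 and at 0.578 CPM in library 3. Folr1, the other gene of the list with the smallest p, had a wildtype mean of 0.647 ± 0.368 CPM and an APPko mean of 1.26 ± 0.685 CPM (adjusted p = 0.21, edgeR). None of the 7 tested genes of the list passed, and 5 had log2 changes above 0. The meningeal fibroblast list (10 genes, 9 tested, none passed) summed to 93.7 to 1577 CPM in wildtype and 149.6 to 519.7 CPM in APPko. Most of that range was Ptgds, a prostaglandin synthase gene that oligodendrocytes also express, at 444, 54.8 and 1465 CPM in wildtype libraries 2, 3 and 4 and at 67.5 to 134 CPM in libraries 1, 5 and 6, while APPko ran from 85.1 to 430.1 CPM. The part of these cells in the Enpp2 values was not tested. Of the Schwann cell list (8 genes, 5 tested), none passed, and Pmp2, a lipid-binding protein of peripheral myelin, had 0 counts in all 14 libraries.

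The header suffix was compared in the same way. Among wildtype libraries, m exceeded f for Mag by a log2 value of 1.99 (SE 0.46, adjusted p = 0.031), the only member to pass, where 3.39% of tested genes passed. The 3 f libraries lay at 2.41 to 4.68 CPM and the 3 m libraries at 3.58 to 21.2 CPM, with m library 4 inside the f range. Within f libraries alone, Mag was at 2.41 to 4.68 CPM in wildtype (n = 3) and at 4.59 to 8.77 CPM in APPko (n = 7), a log2 change of 1.03 (edgeR adjusted p = 0.018). Mag and Enpp2 were the 2 of 9 members that passed there, beside 15.6% of all genes, and 2 of the 3 wildtype libraries in this fit are libraries 2 and 3. In the fit of all 14 libraries with an interaction term, the same change of Mag had an edgeR adjusted p of 0.086. That of Enpp2 was -0.72 (edgeR adjusted p = 0.030), where 17.4% of tested genes passed. In m libraries the single APPko value of Mag, 5.22 CPM, lay between wildtype values of 3.58 and 21.2 CPM. The difference of the APPko change between f and m, tested as an interaction, did not pass for any member, where 1.86% of genes did. It came closest for Mag at a log2 value of 2.33 (SE 0.79, edgeR adjusted p = 0.11), and it rests on 1 m library in APPko.

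With the suffix as a covariate, 8 of 9 log2 changes were above 0, with Mbp at 0.51, Mobp and Mag at 0.50 and 0.49, Mog at 0.25 and Cldn11 at 0.05. Enpp2 was at -0.55 (adjusted p = 0.093). No member passed in this fit, where 1446 of 22150 genes did and the median log2 change of all tested genes was -0.009. Without wildtype libraries 2 and 3, in contrast, 7 of 9 were below 0, among them Mbp at -0.19, Mobp at -0.15, Cnp at -0.08 and Mag at -0.74. The median of all tested genes was -0.015 there. The direction for Mbp, Mobp, Cnp, Mag, Mog and Cldn11 thus turned in 1 or more of the alternative fits, while Myrf and Opalin stayed above 0 and Enpp2 below 0 in all 27 alternative fits.

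The other genes of the lineage were read from lists. Of 38 tested further myelin and mature oligodendrocyte genes none passed, 25 had log2 changes above 0 and the median was 0.16. The 2 with the smallest p were Grb14, an adaptor of growth factor receptors, at 34.3 ± 7.01 CPM in wildtype and 23.9 ± 6.81 CPM in APPko (adjusted p = 0.11), and Anln, an actin-binding protein, at 10.5 ± 5.31 and 6.52 ± 1.37 CPM (adjusted p = 0.12). Of 9 genes for galactolipid and very long chain lipid synthesis 7 were above 0 (median 0.23) and none passed. Here Elovl1, a fatty acid elongase, was at 9.56 ± 2.55 and 14.2 ± 3.24 CPM (adjusted p = 0.098), and the lipid transporter Abca2 at 16.5 ± 6.84 and 25.1 ± 2.08 CPM (adjusted p = 0.12). The receptors and phosphatases of lysophosphatidic acid, the product of autotaxin, had 7 tested genes and none passed (median 0.14), with the phosphatase Plpp2 at 2.54 ± 0.66 and 3.68 ± 1.23 CPM (adjusted p = 0.21) and the receptor Lpar4 at 6.89 ± 1.75 and 5.26 ± 1.40 CPM (adjusted p = 0.25).

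The lists of earlier stages held 2 genes that passed. Tcf7l2, a transcription factor of newly formed oligodendrocytes and of some neurons, fell 1.70-fold from 38.0 ± 14.9 to 22.3 ± 4.32 CPM (log2 change -0.77, SE 0.20, adjusted p = 0.047). It was the only one of 12 newly formed oligodendrocyte genes to pass (median -0.08), and it passed in 3 of the 14 fits without a single library. Zfp536, a zinc finger repressor in the list of 11 lineage transcription factors, fell 1.45-fold from 84.2 ± 15.3 to 58.0 ± 7.35 CPM (log2 change -0.54, SE 0.12, adjusted p = 0.030) and passed in 6 of those 14 fits. The list's median was -0.18, and 3 of its 11 genes were above 0. Its factors Olig1, Olig2 and Sox10 had log2 changes of 0.03, -0.03 and 0.26 and did not pass. With genotype means subtracted, Tcf7l2 and Zfp536 followed the members' mean with a Pearson r of -0.06 and 0.30. Which cells made the Tcf7l2 and Zfp536 transcripts was not tested. Without wildtype libraries 2 and 3 neither passed, with Tcf7l2 at -0.38 (adjusted p = 0.36) and Zfp536 at -0.44 (adjusted p = 0.14). Of 9 tested inhibitors of differentiation none passed (median 0.09), with Lingo1 at 33.8 ± 16.5 and 59.4 ± 14.2 CPM (adjusted p = 0.082) and Sox5 at 30.8 ± 3.10 and 26.4 ± 2.68 CPM (adjusted p = 0.20). Of 12 precursor genes none passed and 6 were above 0 (median -0.05). The precursor marker Pdgfra lay between 16.6 and 34.5 CPM in the 14 libraries, Ptprz1, a receptor phosphatase also made by astrocytes, was at 506 ± 84.9 and 378 ± 45.0 CPM (adjusted p = 0.058), and the cadherin Pcdh15 at 22.3 ± 5.42 and 14.9 ± 3.92 CPM (adjusted p = 0.078).

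**Figure D5:**
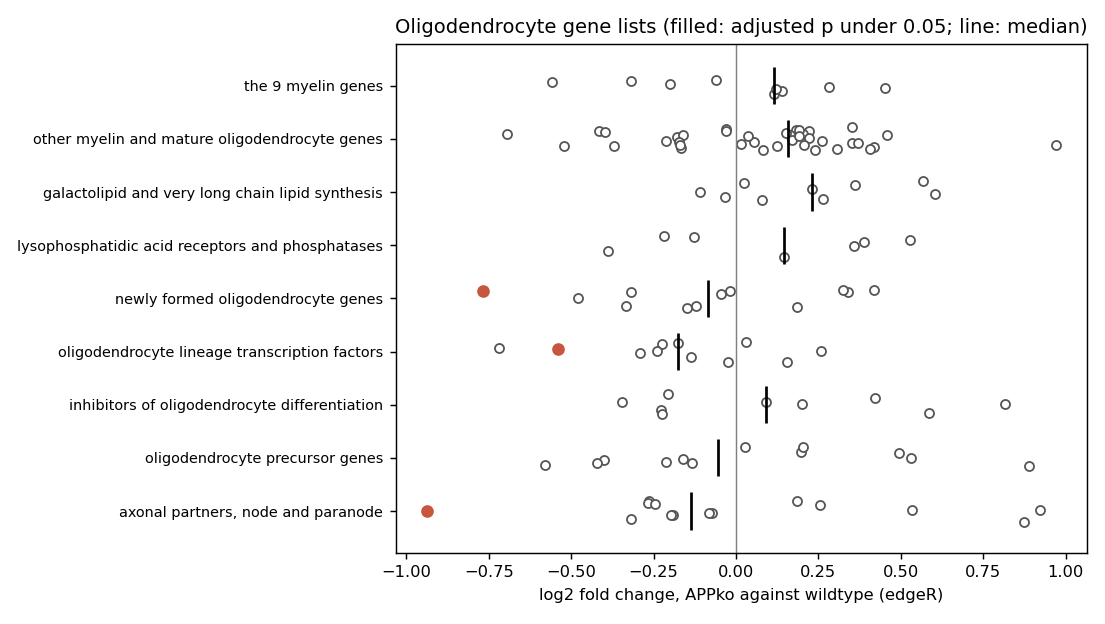
log2 fold change in APPko against wildtype (x axis) for every tested gene of 9 oligodendrocyte lists (rows), with filled points at an adjusted p under 0.05 and a line at each list's median. The 3 filled points are Tcf7l2, Zfp536 and Cntn1, all below 0.

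On the axonal side, 1 of 14 tested genes passed (median -0.14). Cntn1, an adhesion protein of the paranode that neurons and precursors also carry elsewhere, fell 1.92-fold (log2 change -0.94, SE 0.24, adjusted p = 0.048). Its wildtype values ran from 609 to 1974 CPM with a median of 654, and its APPko values from 416.5 to 578 CPM with a median of 547. The groups did not overlap, and without wildtype libraries 2 and 3 the log2 change was -0.27 (adjusted p = 0.31). Cntn1 passed in 4 of the 14 fits without a single library. Rtn4r, the Nogo receptor that also binds Mag, was named after its values were seen, at 6.79 ± 3.03 CPM in wildtype and 12.4 ± 2.83 CPM in APPko (log2 change 0.87, adjusted p = 0.056).

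The genes outside the 9 whose levels followed their mean most closely were sought among 17346 genes of at least 1 CPM, over 14 libraries with genotype means subtracted. Among the 10 with the highest Pearson r were the gap junction gene Gjc3 (r = 0.91, Spearman rho 0.86) and Ugt8a, the galactosyltransferase for myelin galactolipids (r = 0.89, rho 0.90). Ppp1r37 and Bfsp2 (both r = 0.91), Kmt2b (0.90), Plekhg3 and Nek8 (both 0.88), and Fbxo2 and Cuedc1 (both 0.86) were also among them. These values describe the likeness of the largest of 17346 and carry no test. The 10 genes had a median transcript GC content of 56.9%, against 48.4% for all 17346 and 51.0% for the members. With the GC trend of each library removed, 6 of the 10 remained among the 10 most alike. Gjc3, Ugt8a and Bfsp2 had an r of 0.89, 0.86 and 0.89, and Kmt2b, Fbxo2 and Cuedc1 went to 0.57, 0.49 and 0.32.

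Markers of other cells in the tissue were measured beside these genes. Of 10 microglia markers 2 passed, Tyrobp (54.7 ± 27.8 CPM in wildtype, 114.7 ± 19.7 CPM in APPko, edgeR adjusted p = 0.028) and C1qb (123 ± 63.6 and 233 ± 45.0 CPM, adjusted p = 0.047), both higher in APPko, and the list summed to 435 to 804 CPM in wildtype and 581 to 1019 CPM in APPko. Of 10 granule cell markers 1 passed as lower, C1ql3 (30.8 ± 9.71 and 17.9 ± 4.84 CPM, adjusted p = 0.047), with sums of 663 to 1178 and 491 to 859 CPM. None of 10 astrocyte markers passed, with sums of 6254 to 8637 and 5537 to 8316 CPM. Tyrobp passed in 7, C1qb in 3 and C1ql3 in 2 of the 14 fits without a single library. Without wildtype libraries 2 and 3 none of them passed (adjusted p = 0.11, 0.24 and 0.30). The part of these cells in the myelin gene values was not tested.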

How the data were processed

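Gene counts of 14 libraries were used as deposited. Per the labels' protocols, polyadenylated RNA of single dentate gyri was amplified with 12 cDNA and 10 library PCR cycles; the submitters' processing notes name cutadapt 3.5, STAR 2.7.8a, featureCounts 2.0.1 and mm10. Counts carry no molecular identifiers, so amplified copies are not told apart. Groups followed the genotype labels. Members were taken by symbol; members and lists were chosen with earlier results of these data known. Of 55291 rows, 22150 passed edgeR's filterByExpr and were fitted in edgeR 4.0.16 (R 4.3.3; TMM, robust quasi-likelihood test, Benjamini-Hochberg adjustment over all tested genes, threshold 0.05). CPM are TMM-scaled, log2 CPM use a prior count of 2, and SE and 95% intervals come from the fit. Named were all members, the genes of each other list that passed (at most 6) or else the 2 with the smallest p, markers a check rests on, App, and the 10 genes most correlated with the members' mean. Some genes that this rule covers are not reported here. Alternatives covered scaling, filters, DESeq2 1.42.0, limma 3.58.1 (voom), a GC trend, the header suffix, a replicate block and left-out libraries. The suffix interaction and the likeness without GC trend were added after seeing the data. The scripts were tested on simulated data.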

Additional observations from a re-analysis of the deposited data

Results flagged for a closer look

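Of 18 sets of values (9 genes in 2 genotypes), 1 held a library far from the others. Opalin in APPko library 8 was at 30.02 CPM, with the other 7 APPko libraries between 9.31 and 17.9 CPM. This criterion marks about 5% of sets by chance. Library 8 is the only APPko library with the header suffix m, so this value and the suffix cannot be told apart within APPko.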

How the results depend on the processing

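The number of all genes called, 521, was 1801 with DESeq2, 205 with the GC trend removed, 1446 with the suffix as a covariate, 3672 in f libraries alone and 35 without wildtype libraries 2 and 3, and 38 to 1436 when single libraries were left out. Members called were 1 with DESeq2, 2 in f libraries alone, 0 to 1 with single libraries left out and 0 in the other alternative fits. Log2 changes that turned were Mbp -0.0640, Mobp -0.12 and Cnp -0.0373 with voom; Mbp -0.19, Mobp -0.15 and Cnp -0.076 without wildtype libraries 2 and 3; Cnp -0.018 with the GC trend removed; Mog 0.010 with library totals; Mog 0.25, Mag 0.49 and Cldn11 0.049 with the suffix covariate; and Mog 0.36, Mag 1.03, Cldn11 0.26 and the meningeal marker Slc22a6 0.17 (-0.71 in all libraries) in f libraries alone. With single libraries left out, the ranges were -0.024 to 0.44 for Mbp, -0.19 to 0.14 for Mog, -0.50 to 0.25 for Mag, -0.026 to 0.45 for Mobp and -0.29 to 0.058 for Cldn11. The cause was not tested. Same-numbered libraries correlated from -0.34 to 0.19 and 1 of 6 best with its own number, and the main fit did not pair them. These correlations cannot tell whether same-numbered cultures shared an animal or a litter, which the sources used here do not give. The replicate block called 21 genes, 17 with the GC trend removed, and no member; Mog was at 0.071 and 0.0427 and Mag at 0.24 with the block alone.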
